A study of Mus musculus with 6 samples.

Results

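The glutathione and antioxidant defence genes are 40 genes chosen by symbol, which encode the enzymes that make and spend glutathione, the peroxiredoxins and thioredoxins, the superoxide dismutases and catalase, and the transcription factor NRF2 (*Nfe2l2*) with its inhibitor KEAP1 and several of its target enzymes. All 40 were found among the 22380 gene identifiers of the RNA-Seq tables, and 38 averaged 10 or more normalized counts and could be tested. They were compared between 3 *Ctrl* and 3 *Tet iTKO* mouse embryonic stem cell (mESC) lines. *Ctrl* lines carry 1 CreERT2 allele (CreERT2 wt/ki, driven by the broadly active human ubiquitin C promoter) and the Cre-dependent H2B-EGFP reporter Gt(ROSA)26Sor<tm1Ytchn>/J wt/ki, with intact *Tet* genes. *Tet iTKO* lines carry the same alleles together with homozygous floxed *Tet1*, *Tet2* and *Tet3* (Tet1/2/3 fl/fl), the genes of the enzymes that oxidize 5-methylcytosine in DNA.

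Both groups received 1 µM 4-hydroxytamoxifen (4-OHT, called tamoxifen in the sample labels) for 2.5 days and grew without it for 4 further days, so that day 6.5 was measured and no line without the drug is part of the comparison. All lines grew on mouse embryonic fibroblast feeders with the 2i inhibitors CHIR99021 and PD0325901, LIF and the reducing agent β-mercaptoethanol. Live CD326+ GFP+ Thy1.2- cells were sorted for RNA, which selects mESC that recombined the reporter and leaves out Thy1.2+ feeders. Each line came from a different embryo according to the study. The p-values below measure the spread between these lines alone.

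Cells remove superoxide with the superoxide dismutases, which turn it into hydrogen peroxide, and remove peroxides with catalase, the glutathione peroxidases and the peroxiredoxins. Glutathione and thioredoxin supply the electrons for the glutathione peroxidases and the peroxiredoxins and are reduced again with NADPH, while the dismutases and catalase need neither. NRF2, when it escapes KEAP1, binds antioxidant response elements and raises the transcription of many of these genes.

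CpG dinucleotides are where the mammalian genome is methylated and therefore where TET enzymes act, although methylation was not analysed here. The 250 bases before the start of transcription are shown for *Gpx2*, the member with the largest fall, for *Sod1*, the member with the most transcript, and for *Gclm*, the member of glutathione synthesis that rose. They come from RefSeq on GRCm38.p6, run 5′ to 3′ on the strand of the gene, and have each CpG in capitals. The windows are chr12:76795555-76795804 on the minus strand for *Gpx2*, chr16:90220512-90220761 on the plus strand for *Sod1* and chr3:122245307-122245556 on the plus strand for *Gclm*.
Gpx2: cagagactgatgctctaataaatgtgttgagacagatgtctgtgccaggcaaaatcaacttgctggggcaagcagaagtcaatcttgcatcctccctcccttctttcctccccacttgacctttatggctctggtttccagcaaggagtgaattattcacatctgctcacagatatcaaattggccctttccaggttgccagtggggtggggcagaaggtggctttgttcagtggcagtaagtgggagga
Sod1: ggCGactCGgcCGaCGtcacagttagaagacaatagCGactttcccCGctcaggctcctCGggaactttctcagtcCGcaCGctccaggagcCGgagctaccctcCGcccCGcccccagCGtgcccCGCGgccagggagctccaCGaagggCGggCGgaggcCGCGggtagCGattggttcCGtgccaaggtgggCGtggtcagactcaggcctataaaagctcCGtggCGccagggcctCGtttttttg
Gclm: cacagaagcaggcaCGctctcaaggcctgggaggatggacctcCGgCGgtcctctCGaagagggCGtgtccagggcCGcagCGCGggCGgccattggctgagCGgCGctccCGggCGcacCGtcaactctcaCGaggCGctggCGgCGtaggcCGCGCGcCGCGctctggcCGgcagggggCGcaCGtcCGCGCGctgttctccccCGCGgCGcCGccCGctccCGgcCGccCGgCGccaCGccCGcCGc

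The *Gpx2* window held 0 CpG, the *Sod1* window 26 and the *Gclm* window 41. Over 32851 RefSeq promoter windows of this length the median was 6 CpG and 7.87% held none, and over the 43 windows of the 34 members with an entry the median was 13. *Gpx2* was the member whose only window lacked a CpG. Over all their windows, members that rose had a median of 17 CpG (4 windows), members that fell 12 (19 windows), and tested members that passed in neither direction 15 (16 windows).

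The letters TGACNNNGC of the antioxidant response element, searched on both strands, stood in 8 of the 43 member windows (18.6%) and in 10.2% of all promoter windows. These letters share their first part with the AP-1 element TGACTCA. Stretches of members that rose, fell and did neither are shown so that the match can be read, with the 9 matching letters in capitals and 15 bases on each side where the window reaches that far. They lie at chr3:122245408-122245446 for *Gclm*, chr16:90220691-90220729 for *Sod1*, chr10:82859099-82859137 for *Txnrd1* and chr4:116685451-116685489 for *Prdx1*, all on the plus strand, and at chr2:75704880-75704913 on the minus strand for *Nfe2l2* itself.
Gclm: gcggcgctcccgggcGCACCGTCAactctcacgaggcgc
Sod1: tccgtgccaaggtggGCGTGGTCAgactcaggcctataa
Txnrd1: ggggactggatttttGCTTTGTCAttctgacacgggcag
Prdx1: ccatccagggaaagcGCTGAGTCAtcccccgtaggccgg
Nfe2l2: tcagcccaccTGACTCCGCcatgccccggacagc

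*G6pdx*, *Gstm5* and *Mgst1* held the other matches. Among members with an entry, 1 of 4 that rose, 2 of 13 that fell and 4 of 15 that passed in neither direction held the letters, in addition to *Mgst1*, which was not tested. A match is a run of letters and not evidence of binding, and no entry was given for *Gclc*, *Hmox1*, *Gstt2*, *Gsta4*, *Prdx6* and *Gsr*.

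After scaling by size factors the libraries summed to 4210784 to 4219665 normalized counts in *Ctrl* and to 3964824 to 3996522 in *Tet iTKO* mESC, which do not overlap, and the number of reads behind them is not known. Over the whole gene, *Tet1* gave normalized counts of 696, 682 and 716 in *Ctrl* against 787, 895 and 753 in *Tet iTKO* lines, *Tet2* had 249, 170 and 230 against 233, 268 and 211, and *Tet3* had 28, 13 and 13 against 10, 3 and 3. These totals include the exons that were not floxed, so they do not check the deletion. All 10 mESC markers were present in all lines, and their summed level was 32380 to 32680 normalized counts in *Ctrl* and 28084 to 29204 in *Tet iTKO* lines. Of these markers *Pou5f1* (log2 fold change -0.29), *Nanog* (-0.30), *Zfp42* (-0.35) and *Dppa5a* (-0.39) were lower, *Esrrb* (0.29) and *Epcam* (0.45) were higher, and 4 passed in neither direction. The summed level of 12 feeder fibroblast markers was 288 to 308 normalized counts in *Ctrl* and 512 to 567 in *Tet iTKO* lines, with *Col1a1*, *Col1a2* and *Col3a1* higher and *Thy1* not, while *Dcn* and *Lum* were at 15 or less in every line. The 10 endoderm markers summed to 22 to 35 in *Ctrl* and 28 to 40 in *Tet iTKO* lines, and 8 trophoblast markers to 712 to 801 and 632 to 671, most of it *Tfap2c*. The part of these markers in the results below was not tested. In such bulk samples, fewer cells with a transcript and less of it per cell cannot be told apart.

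Among the 38 tested members, 14 were lower in *Tet iTKO* mESC (36.8%, against 18.4% of the 10524 genes tested) and 5 were higher (13.2%, against 16.4%) at an adjusted p under 0.05 (limma with Benjamini-Hochberg adjustment). Of those that were higher, *Gstt1* passed the filter on the mean through the *Tet iTKO* lines alone. Of the 7819 genes with a mean of at least 50 normalized counts, 24.0% were lower, as were 14 of the 35 members with such a mean. The median log2 fold change was -0.11 for the members and 0.01 for all genes tested. Most changes were small, since only *Gpx2* fell and only *Gstt1* rose by 2-fold or more, where 1.3% and 4.95% of all genes did so (6.25% in either direction). The values of the *Ctrl* and *Tet iTKO* lines did not overlap for 20 members (52.6%), 15 lower and 5 higher, against 44.1% of all genes tested, 22.9% lower and 21.2% higher. When libraries were rescaled to equal totals, 8 of the 38 members were lower and 8 higher, against 1428 and 2319 of the 10524 genes tested. The median of all genes moved to 0.10, so the balance of lower and higher calls depends on the scaling. *Sod2*, *Cat*, *Gstm1*, *Gsto1*, *Prdx3* and *Txnrd1* lost their calls under that scaling.

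Transcript length and GC content moved with the fold changes of all genes, with a Spearman correlation across 10457 genes of 0.32 for length and 0.25 for GC content, as a description only. The members that fell and those that rose were both short, with median lengths of 1235.5 and 1289 bases against 3074 for all genes tested. Tested members that passed in neither direction had a median of 2049 bases. Across the 38 tested members the Spearman correlation with length was 0.18. The fold changes were therefore also computed after a loess correction for length and GC content, in 3 forms whose choice is described with the processing. Of the 19 calls, 13 stayed in all 3 forms (8 lower and 5 higher), *Gstm1*, *Gsto1*, *Prdx3* and *Prdx4* lost theirs in all 3, and *Gpx4* and *Cat* lost theirs in the robust form only. With *Prdx1*, *Txn1* and *Hmox1*, which became higher, 8 members were higher and 8 lower in all 3 forms. In the robust form 23.7% of the tested members were higher and 21.1% lower, against 12.3% and 13.1% of all genes.

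**Figure D1:**
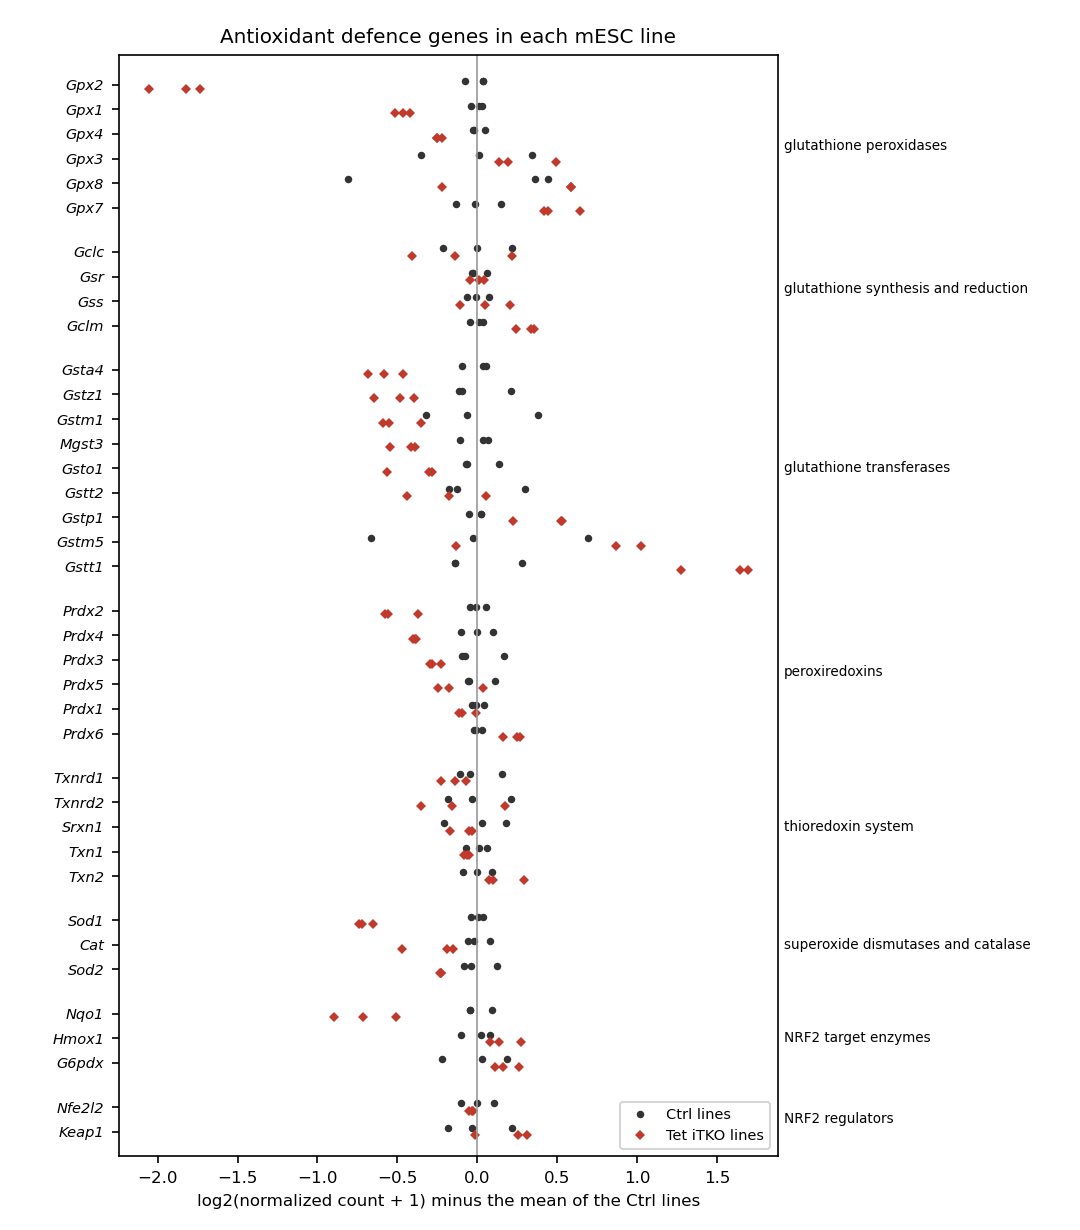
Points give log2(normalized count + 1) of each of the 38 tested genes in each line minus the mean of the 3 *Ctrl* lines, with *Ctrl* lines as circles and *Tet iTKO* lines as diamonds, grouped by role. *Gpx2* lies farthest to the left and *Gstt1* farthest to the right, and most other genes stay within 1 unit of the *Ctrl* mean.

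The 3 members that encode superoxide dismutases or catalase were lower (100%, against 18.4% of all genes tested). After the robust correction for GC content and length 2 were lower (66.7%, against 13.1% of all genes). *Sod3*, another superoxide dismutase gene that is not a member, gave normalized counts of 1, 10 and 4 in *Ctrl* against 2, 7 and 10 in *Tet iTKO* lines. Its groups overlapped, and it was not tested. *Sod1* (ENSMUSG00000022982.9), the cytosolic copper-zinc enzyme, gave normalized counts of 5016, 4761 and 4903 in *Ctrl* against 2924, 2972 and 3115 in *Tet iTKO* lines. No *Tet iTKO* line reached the lowest *Ctrl* line, with 4893 ± 128 (SD, n = 3) and 3004 ± 99.4 (SD, n = 3) as group means. The log2 fold change was -0.70 (SE 0.05, adjusted p = 1.24e-14), and after correction for GC content and length it was -0.27 to -0.24 over the 3 forms, still past the threshold. Part of the sequence is not unique, since 23.1% of the 50-base windows of the *Sod1* transcript also occur in the annotated gene *Gm8566*.

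*Sod2*, the mitochondrial manganese enzyme, gave normalized counts of 1686, 1888 and 1640 in *Ctrl* against 1483, 1482 and 1475 in *Tet iTKO* lines, which did not overlap. Its log2 fold change of -0.23 (SE 0.06, adjusted p = 0.0025) was -0.28 to -0.25 after correction, but it missed the threshold with libraries rescaled to equal totals (-0.14, adjusted p = 0.055) and with quantile normalization (-0.12, adjusted p = 0.1). *Cat*, the catalase gene, went from 449 ± 23.3 to 373 ± 43.9 normalized counts (SD, n = 3), a log2 change of -0.27 (adjusted p = 0.027). The call was lost without *Ctrl* replicate 1 (-0.23), without *Tet iTKO* replicate 2 (-0.17), with equal totals (-0.19, adjusted p = 0.13) and with quantile normalization (-0.20, adjusted p = 0.12).

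The log2 ratio of *Sod2* to *Sod1* within a library, which no scaling of libraries can move, was -1.57, -1.33 and -1.58 in *Ctrl* and -0.98, -1.003 and -1.08 in *Tet iTKO* lines. The ratio was higher in all 3 *Tet iTKO* lines than in every *Ctrl* line, by 0.48 on the log2 scale (p = 0.1 by an exact two-sided permutation test, the smallest that 3 lines against 3 allow). The *Sod1* transcript has 641 bases and that of *Sod2* 5861, and after correction for GC content and length the difference was -0.03 to 0.0024 over the 3 forms, close to 0.

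The glutathione peroxidases, which spend glutathione to reduce peroxides, held the largest fall. *Gpx2* (ENSMUSG00000042808.7), a cytosolic peroxidase best known from gut epithelium, gave normalized counts of 204, 221 and 221 in *Ctrl* against 60, 51 and 64 in *Tet iTKO* lines. The lines of each group lay close together and the groups far apart, *Tet iTKO* mESC keeping 27.1% of the *Ctrl* mean. The log2 fold change was -1.87 (SE 0.17, 95% interval -2.22 to -1.52, adjusted p = 5.42e-11). It was -1.65 to -1.56 after correction and -1.94 to -1.78 in the 6 fits that omit a line. Of the 50-base windows of the *Gpx2* transcript, 18.9% also occur in *Gpx2-ps1*.

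*Gpx1*, the abundant cytosolic peroxidase, gave normalized counts of 6011, 6299 and 6216 in *Ctrl* against 4328, 4467 and 4616 in *Tet iTKO* lines. The groups did not overlap, and the log2 fold change was -0.47 (SE 0.04, adjusted p = 5.42e-11), and -0.35 to -0.24 after correction. *Gpx4*, which reduces lipid peroxides in membranes and protects from ferroptosis, fell from 4955 ± 137 to 4192 ± 44.5 normalized counts (SD, n = 3), a log2 change of -0.24 (adjusted p = 3.23e-05). Its call was lost with quantile normalization (-0.05, adjusted p = 0.35) and in the robust correction (-0.06, adjusted p = 0.31), and 61.7% of its 50-base windows are shared, chiefly with *Gpx4-ps2*.

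*Gpx7*, an endoplasmic reticulum peroxidase, rose. It gave normalized counts of 99, 111 and 91 in *Ctrl* against 136, 134 and 157 in *Tet iTKO* lines, with no overlap, and its log2 fold change was 0.50 (SE 0.17, adjusted p = 0.017). The call was lost without *Ctrl* replicate 3 (0.43) and without *Tet iTKO* replicate 3 (0.43). *Gpx3*, the secreted peroxidase, and *Gpx8*, another endoplasmic reticulum enzyme, overlapped between groups, with log2 fold changes of 0.27 and 0.32 that missed the threshold (adjusted p = 0.28 and 0.66).

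Since *Gpx1* and *Gpx2* encode related cytosolic peroxidases, their ratio was compared within libraries. The log2 ratio of *Gpx2* to *Gpx1* was -4.87, -4.83 and -4.81 in *Ctrl* and -6.15, -6.42 and -6.15 in *Tet iTKO* lines, a difference of -1.41 with no overlap (p = 0.1 by an exact two-sided permutation test, the smallest possible here). The difference was -1.32 to -1.28 after correction.

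**Figure D2:**
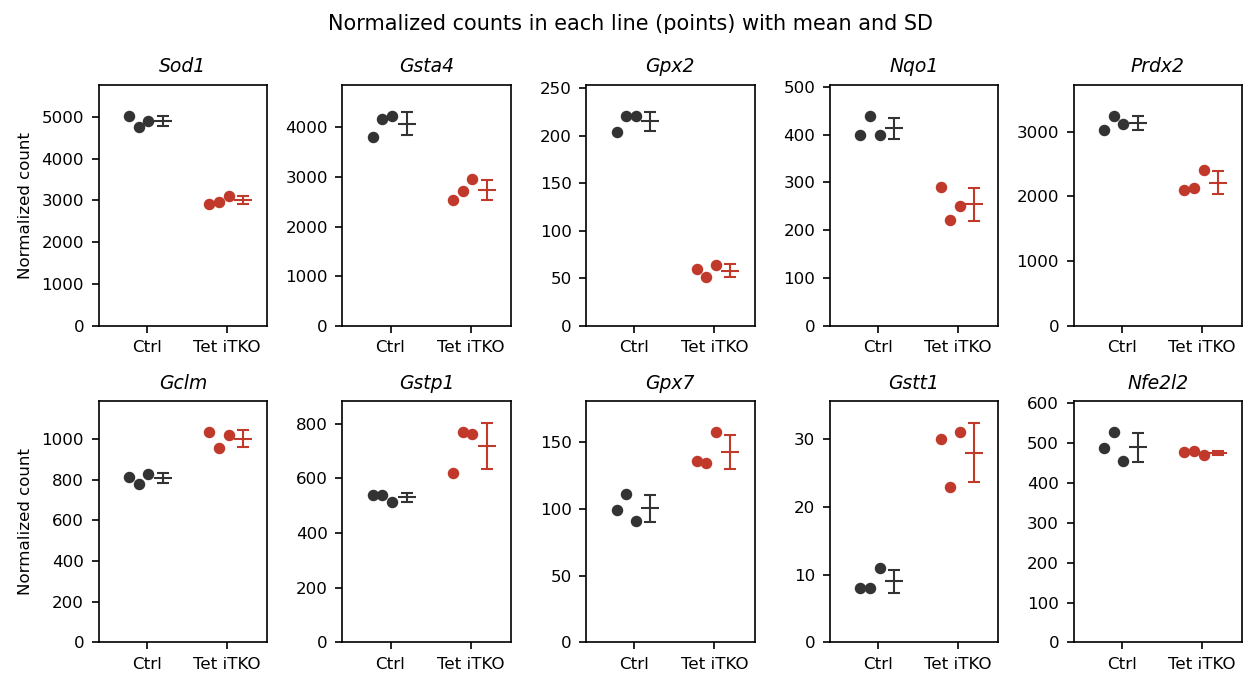
Points give normalized counts of 10 genes in each *Ctrl* (dark) and *Tet iTKO* (red) line, and bars beside them the mean and SD of 3 lines, on axes that start at 0. The groups are apart for 9 genes, while the *Nfe2l2* values of the *Tet iTKO* lines (470 to 479) lie inside the *Ctrl* range.

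Glutathione is made in a pair of steps and regenerated by a reductase. *Gclm* (ENSMUSG00000028124.7), the modifier subunit of glutamate-cysteine ligase, which catalyses the first and rate-limiting step, gave normalized counts of 813, 781 and 829 in *Ctrl* against 1032, 956 and 1019 in *Tet iTKO* lines. All *Tet iTKO* lines were above all *Ctrl* lines, with a log2 change of 0.31 (SE 0.07, adjusted p = 4.56e-04) that stayed between 0.28 and 0.31 after correction. *Gclc*, the catalytic subunit of the same enzyme, gave normalized counts of 175, 203 and 237 in *Ctrl* against 237, 185 and 153 in *Tet iTKO* lines, and these overlapped (-0.11, adjusted p = 0.6).

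The log2 ratio of *Gclm* to *Gclc* was 2.21, 1.94 and 1.80 in *Ctrl* and 2.12, 2.36 and 2.73 in *Tet iTKO* lines. The groups overlapped, with a difference of 0.42 and SDs of 0.21 in *Ctrl* and 0.31 in *Tet iTKO* lines (p = 0.2, exact two-sided permutation test). With 3 lines against 3 this test cannot go below 0.1, so it does not decide whether the groups differ. The difference was 0.38 to 0.42 after correction. *Gss*, glutathione synthetase, and *Gsr*, glutathione reductase, had log2 fold changes of 0.05 and 0.0016 that missed the threshold, with 95% intervals of -0.21 to 0.30 and -0.12 to 0.12.

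Glutathione transferases conjugate glutathione to reactive compounds. Of 11 listed, 9 were tested, of which 3 fell (33.3%, against 18.4% of all genes tested) and 2 rose (22.2%, against 16.4%). After the robust correction for GC content and length, 1 was lower and 2 were higher (11.1% and 22.2%, against 13.1% and 12.3% of all genes). Both shares of higher genes count *Gstt1*, which passed the filter on the mean through the *Tet iTKO* lines alone. *Gsta4*, which clears the lipid peroxidation product 4-hydroxynonenal, gave normalized counts of 3812, 4175 and 4227 in *Ctrl* against 2536, 2718 and 2949 in *Tet iTKO* lines. The groups did not overlap, and the log2 fold change of -0.58 (SE 0.05, adjusted p = 5.42e-11) shrank to between -0.21 and -0.17 after correction, still past the threshold.

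*Gstm1* gave normalized counts of 110, 92 and 150 in *Ctrl* against 90, 76 and 78 in *Tet iTKO* lines, so that the groups were separated by 2 counts. Its log2 fold change of -0.50 (adjusted p = 0.044) kept its call in 2 of the 6 fits that left out a line. It was lost without *Ctrl* replicate 1 (-0.53), *Ctrl* replicate 3 (-0.31), *Tet iTKO* replicate 2 (-0.45) and *Tet iTKO* replicate 3 (-0.47). Of the 50-base windows of the *Gstm1* transcript, 23.1% are shared with other genes, chiefly *Gstm2-ps1*.

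*Gsto1*, an omega-class enzyme with dehydroascorbate reductase activity, went from 177 ± 14.7 to 136 ± 14.5 normalized counts (SD, n = 3), a log2 change of -0.38 (adjusted p = 0.039). It kept its call only without *Tet iTKO* replicate 3, among the 6 fits, and lost it without any other line, with values of -0.42 to -0.29.

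*Gstp1*, the pi-class enzyme, rose from 532 ± 16.2 normalized counts in *Ctrl* to 717 ± 84.3 in *Tet iTKO* lines (SD, n = 3). Its log2 fold change of 0.42 (SE 0.08, adjusted p = 1.19e-04) became 0.69 to 0.78 after correction. Of its 50-base windows, 62.3% also occur in *Gstp2* or *Gstp-ps*. Only uniquely aligned reads were kept, so reads from these windows can be missing from the *Gstp1* count. *Gstp2* itself had 76 to 114 normalized counts over the 6 lines.

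*Gstt1*, a theta-class enzyme, was the member with the largest rise, from 8, 8 and 11 normalized counts in *Ctrl* to 30, 23 and 31 in *Tet iTKO* lines. It passed the filter on the mean through the *Tet iTKO* lines alone, so its log2 fold change of 1.54 (adjusted p = 0.0082) describes a gene of few reads. *Mgst1*, a microsomal enzyme, gave normalized counts of 1, 2 and 0 in *Ctrl* against 22, 4 and 19 in *Tet iTKO* lines, and *Gstt3* had 3, 3 and 9 against 10, 10 and 5. Both had a mean under 10 and were not tested.

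*Gstz1*, the zeta-class enzyme of tyrosine breakdown, and *Mgst3*, a microsomal enzyme, were lower in every *Tet iTKO* line than in every *Ctrl* line. They missed the threshold, with log2 fold changes of -0.51 and -0.45 (adjusted p = 0.058 and 0.089). *Gstm5* and *Gstt2* overlapped between the groups, with log2 fold changes of 0.59 and -0.19.

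Peroxiredoxins reduce hydrogen peroxide through a reactive cysteine. Of the 6, 3 fell (50.0%, against 18.4% of all genes tested) and 1 rose (16.7%, against 16.4%). After the robust correction for GC content and length, 1 was lower and 2 were higher (16.7% and 33.3%, against 13.1% and 12.3% of all genes). *Prdx2*, a cytosolic enzyme, gave normalized counts of 3028, 3243 and 3112 in *Ctrl* against 2099, 2125 and 2414 in *Tet iTKO* lines. The groups did not overlap, and the log2 fold change of -0.50 (SE 0.05, adjusted p = 2.23e-09) was -0.40 to -0.31 after correction. Of its windows 23.8% are shared, and its exons overlap those of the antisense gene *Rnaseh2a*, which had a log2 change of -0.39. Smart-Seq2 does not keep the strand, so reads of such partners cannot be told apart.

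*Prdx4*, the endoplasmic reticulum enzyme, went from 558 ± 39 to 425 ± 3.5 normalized counts (SD, n = 3), a log2 change of -0.39 (adjusted p = 4.51e-04) that all 6 fits without a line kept. After correction by least squares it was -0.06 and -0.04, and the call was lost in all 3 forms. *Prdx3*, the mitochondrial enzyme, fell by 0.27 on the log2 scale (adjusted p = 0.032) and changed sign after correction, to between 0.0068 and 0.04. Its call was also lost without *Ctrl* replicate 1 (-0.18), *Tet iTKO* replicate 2 (-0.26) and *Tet iTKO* replicate 3 (-0.26), with equal totals (-0.18, adjusted p = 0.15) and with quantile normalization (-0.22, adjusted p = 0.09).

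*Prdx4* lies on chromosome X. Of the Y-linked genes read beside it, *Ddx3y*, *Uty* and *Kdm5d* overlapped between the groups, with log2 fold changes of -0.29, -0.37 and -0.83 that missed the threshold (adjusted p = 0.2, 0.22 and 0.11). *Eif2s3y* gave normalized counts of 363, 344 and 375 in *Ctrl* against 182, 181 and 178 in *Tet iTKO* lines, a log2 change of -0.995 (adjusted p = 5.56e-09). The part of this difference in the value of *Prdx4* was not tested.

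*Prdx6*, a 1-cysteine enzyme that works with glutathione rather than thioredoxin, rose. Its values were 4529 ± 81.4 in *Ctrl* and 5293 ± 211 in *Tet iTKO* lines (SD, n = 3), with a log2 change of 0.22 (SE 0.04, adjusted p = 9.58e-05). *Prdx1*, the most read member with 9607 ± 245 normalized counts in *Ctrl* (SD, n = 3), and *Prdx5* had log2 fold changes of -0.07 and -0.13 that missed the threshold. After correction *Prdx1* was higher in all 3 forms, at 0.15 to 0.16.

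The thioredoxin system reduces peroxiredoxins. *Txnrd1*, the cytosolic thioredoxin reductase, gave normalized counts of 2887, 2409 and 2515 in *Ctrl* against 2468, 2354 and 2222 in *Tet iTKO* lines. The groups overlapped, and the log2 fold change of -0.15 was just past the threshold (adjusted p = 0.046). The call was lost without *Ctrl* replicate 1 (-0.07), *Tet iTKO* replicate 2 (-0.15) and *Tet iTKO* replicate 3 (-0.11), with quantile normalization (-0.03, adjusted p = 0.74) and with equal totals (-0.06, adjusted p = 0.43).

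*Txn1*, cytosolic thioredoxin, gave normalized counts of 1589, 1685 and 1742 in *Ctrl* against 1601, 1576 and 1609 in *Tet iTKO* lines, with overlap and a log2 change of -0.07 (adjusted p = 0.39). It was higher after each form of the correction, at 0.31 to 0.34. The log2 ratio of *Txnrd1* to *Txn1* was 0.86, 0.52 and 0.53 in *Ctrl* and 0.62, 0.58 and 0.47 in *Tet iTKO* lines, a difference of -0.08 within the spread (exact two-sided permutation test, p = 0.7). It was -0.54 to -0.51 in the corrected values, which has no test. *Txn2*, *Txnrd2* and *Srxn1*, which are mitochondrial thioredoxin, its reductase and the sulfiredoxin that repairs overoxidized peroxiredoxins, had log2 fold changes of 0.16, -0.11 and -0.09 that missed the threshold.

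**Figure D3:**
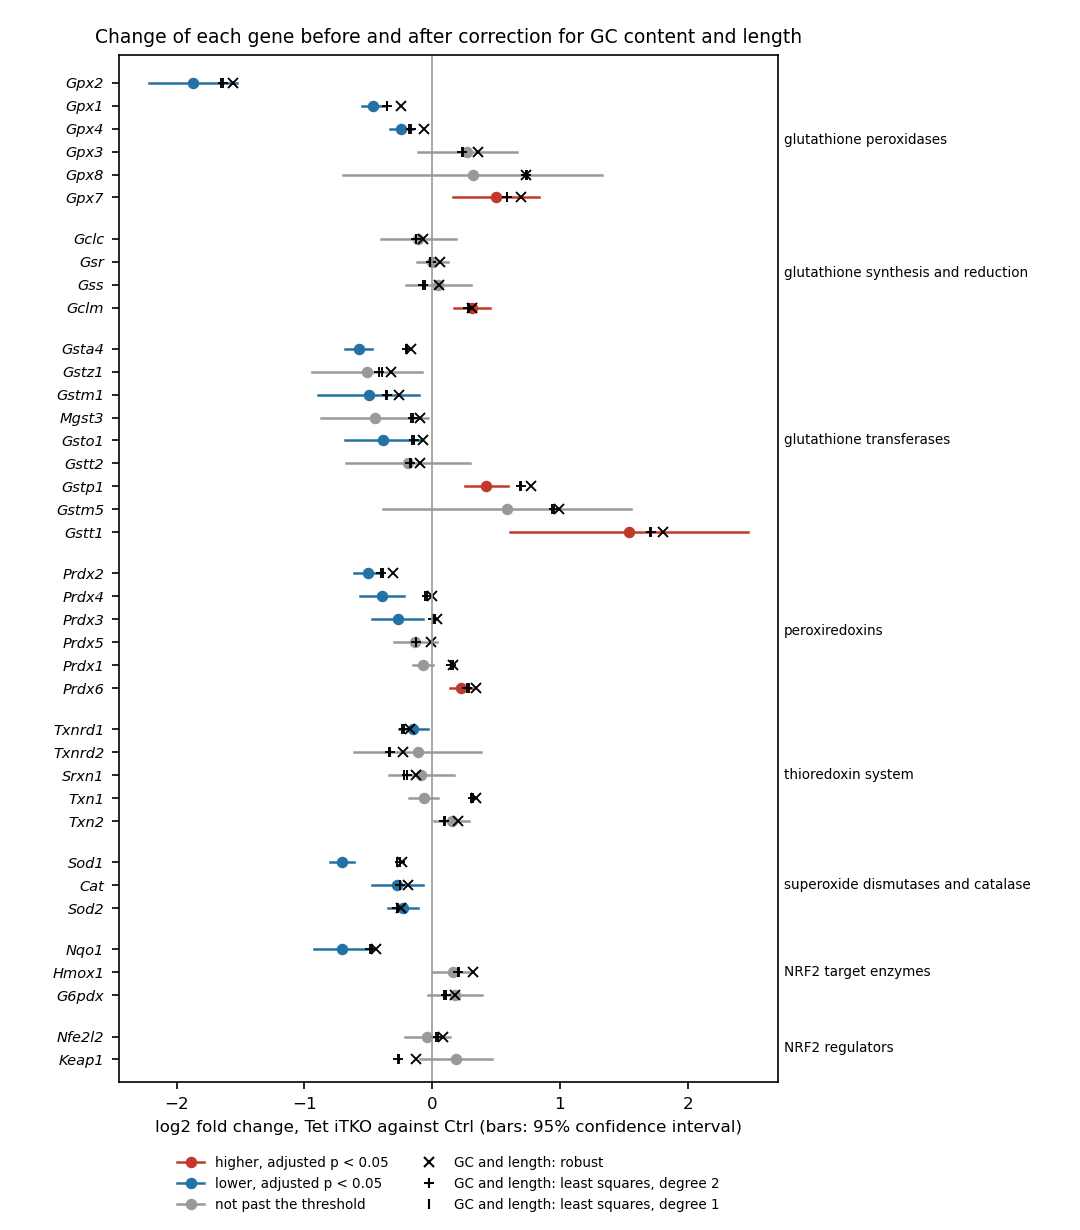
The log2 fold change of each of the 38 genes (circle, with 95% confidence interval) is plotted with the values after the 3 forms of the correction for GC content and length (black symbols). *Sod1* moves from -0.70 to between -0.27 and -0.24 and *Gpx2* from -1.87 to between -1.65 and -1.56, while *Gclm* stays between 0.28 and 0.31.

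Neither regulator of the NRF2 pathway passed the test. *Nfe2l2* gave normalized counts of 487, 526 and 454 in *Ctrl* against 477, 479 and 470 in *Tet iTKO* lines, and *Keap1* had 167, 198 and 150 against 204, 169 and 212. Both overlapped between the groups, with log2 fold changes of -0.04 (95% interval -0.21 to 0.14) and 0.19 (95% interval -0.10 to 0.47). The log2 ratio of *Keap1* to *Nfe2l2* was -1.54, -1.41 and -1.59 in *Ctrl* and -1.22, -1.50 and -1.14 in *Tet iTKO* lines, which overlapped. The difference was 0.22, with SDs of 0.10 in *Ctrl* and 0.19 in *Tet iTKO* lines (exact two-sided permutation test, p = 0.2). That test cannot go below 0.1 here, so it does not decide whether the groups differ. The difference turned to between -0.30 and -0.22 after correction.

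The target enzymes of NRF2 did not move together. *Nqo1*, a quinone reductase that is a common readout of NRF2 activity, gave normalized counts of 400, 439 and 400 in *Ctrl* against 290, 221 and 251 in *Tet iTKO* lines. It fell without overlap, by 0.71 on the log2 scale (SE 0.11, adjusted p = 2.17e-06), and its log2 fold change was -0.49 to -0.44 after correction. *Hmox1*, which breaks down heme, and *G6pdx*, which supplies NADPH, had log2 fold changes of 0.16 and 0.18 that missed the threshold (adjusted p = 0.097 and 0.19), and *Hmox1* was higher after each form of the correction (0.20 to 0.32). *Gclm*, also a target, rose.

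**Figure D4:**
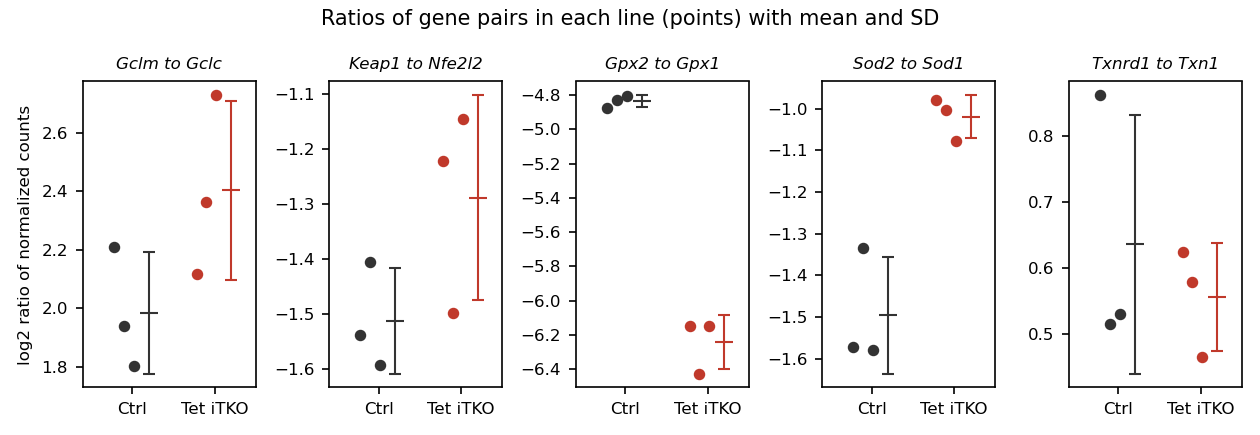
Points give the log2 ratio of normalized counts of 5 pairs of genes in each line, without correction for GC content and length, with mean and SD of 3 lines beside them, each panel on its own axis that does not start at 0. The lines of both groups are apart for *Gpx2* to *Gpx1* and for *Sod2* to *Sod1* and overlap for the other 3 pairs.

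Per kb of transcript, *Sod1* was the most abundant member in both groups, with 7634 normalized counts per kb in *Ctrl* and 4686 in *Tet iTKO* mESC. In *Ctrl* it was followed by *Gpx1* (5761), *Gpx4* (4980), *Prdx1* (4188) and *Gsta4* (4167), of which *Prdx1* and *Gsta4* overlapped between lines. The summed level of all members per kb was 38671 ± 525 in *Ctrl* and 31218 ± 961 in *Tet iTKO* lines (SD, n = 3), which is 80.7% of *Ctrl*. The sum went to 62.7% of *Ctrl* for superoxide dismutases and catalase, 77.0% for transferases, 77.8% for glutathione peroxidases and 92.7% for peroxiredoxins, and was 97.0% for the thioredoxin system and 104% for glutathione synthesis and reduction. Each sum is carried by few genes, *Sod1* making up 94.2% of the first in *Ctrl*. The sums are not corrected for GC content, length or library totals, and dividing by length gives short transcripts more weight. *Sod1*, with 641 bases, moved from -0.70 to between -0.27 and -0.24 on the log2 scale after correction for GC content and length. No such sum over all genes is given here. As read counts, the members made up 1.24% to 1.27% of the total in *Ctrl* and 1.14% to 1.19% in *Tet iTKO* libraries.

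**Figure D5:**
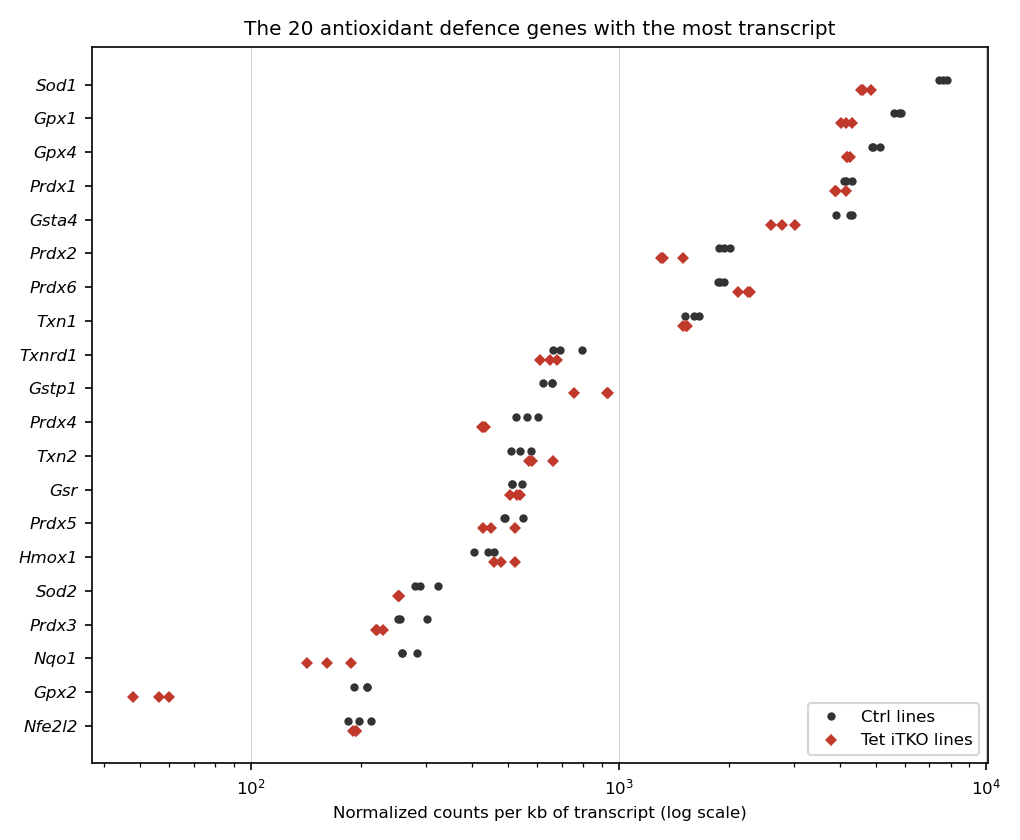
Normalized counts per kb of transcript, on a log axis, of the 20 members with the highest level in *Ctrl*, one point per line. *Sod1* leads in both groups, from 7634 on average in *Ctrl* to 4686 in *Tet iTKO* mESC, without correction for GC content and length.

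Genes of the same pathways that are not members were read from 6 lists with 139 genes, 108 of them tested, of which 17 were higher and 29 lower (15.7% and 26.9%, against 16.4% and 18.4% of all genes tested). After correction, 14 to 17 were higher and 24 to 30 lower over the 3 forms. Of all 10457 genes, 988 to 1285 were higher and 1373 to 2030 lower in these forms. The list of cysteine supply and glutathione turnover had 7 genes higher and 2 lower among 18 tested (38.9% and 11.1%, against 16.4% and 18.4%). After correction 5 to 7 were higher and 4 to 5 lower (38.9% and 22.2% in the robust form, against 12.3% and 13.1% of all genes). *Anpep*, a membrane aminopeptidase that acts on the products of glutathione breakdown, gave normalized counts of 7, 5 and 1 in *Ctrl* against 24, 32 and 27 in *Tet iTKO* lines, and *Oplah*, which converts 5-oxoproline to glutamate, had 17, 19 and 42 against 94, 54 and 94. *Anpep* passed the filter on the mean through the *Tet iTKO* lines alone, so its log2 fold change of 2.64 describes a gene of few reads. That of *Oplah* was 1.67 (adjusted p = 7e-05). *Slc1a4*, a transporter of neutral amino acids, rose by 0.77, and *Lap3* and *Cndp2*, which are peptidases, fell by 0.44 and 0.19 on the log2 scale. The call of *Cndp2* held in 3 of the 6 fits without a line and was lost with quantile normalization (-0.10, adjusted p = 0.28). *Slc7a11*, the cystine transporter of system xc-, had 1 to 4 normalized counts in all 6 lines, near the floor of 3, and its partner *Slc3a2* had a log2 change of -0.01 (adjusted p = 0.87).

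Of 23 tested proteins with a thioredoxin fold and related enzymes, 10 were lower and 1 higher (43.5% and 4.35%, against 18.4% and 16.4% of all genes). After correction 6 to 8 were lower and 0 higher (26.1% and 0% in the robust form, against 13.1% and 12.3% of all genes). *Msrb2*, *Glrx3* and *Txndc17* fell by 0.83, 0.66 and 0.56 on the log2 scale and *Sesn2* rose by 0.26. *Txnip*, the inhibitor of thioredoxin, had a log2 change of -0.06 that missed the threshold. In the list of NADPH supply, 5 of 15 tested genes were lower and 2 higher (33.3% and 13.3%, against the same 18.4% and 16.4%). *Aldh1l1*, a folate enzyme that makes NADPH, gave normalized counts of 29, 63 and 53 in *Ctrl* against 10, 9 and 11 in *Tet iTKO* lines (log2 fold change -2.10, adjusted p = 9.2e-05), *Me1* and *Taldo1* fell by 0.56 and 0.44, and *Nnt* and *Nadk2* rose by 0.50 and 0.32. The call of *Nadk2* held in 3 of the 6 fits without a line.

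Of 22 tested partners and other targets of NRF2, 5 were lower and 2 higher (22.7% and 9.09%, against 18.4% and 16.4% of all genes). After correction 6 to 7 were lower and 3 higher (27.3% and 13.6% in the robust form, against 13.1% and 12.3% of all genes). *Rbx1*, the RING subunit of the ligase that degrades NRF2, gave normalized counts of 817, 785 and 691 in *Ctrl* against 397, 428 and 358 in *Tet iTKO* lines (log2 fold change -0.95, adjusted p = 5.42e-11). The aldo-keto reductases *Akr1b8* and *Akr1b3* fell by 0.88 and 0.58 on the log2 scale, and *Nfe2l1* and *Mafg* rose by 0.40 and 0.32, but both calls were lost in all 3 forms of the correction. *Bach1*, which represses NRF2 targets, had a log2 change of 0.48 that missed the threshold (adjusted p = 0.39).

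Selenoproteins include some of the glutathione peroxidases and the thioredoxin reductases. Of 18 tested genes for selenium use and other selenoproteins, 6 were lower and 2 higher (33.3% and 11.1%, against 18.4% and 16.4% of all genes). After correction 2 were lower and 1 to 2 higher (11.1% and 11.1% in the robust form, against 13.1% and 12.3% of all genes). *Selenof*, *Selenos* and *Selenoh* fell by 0.84, 0.79 and 0.41 on the log2 scale, and *Selenon* rose from 25, 28 and 42 to 84, 105 and 136 normalized counts (log2 fold change 1.75, adjusted p = 1.26e-06). *Sephs2*, which makes the selenium donor, overlapped between the groups, and its log2 change of 0.17 (adjusted p = 0.041) held its call in 2 of the 6 fits without a line and in 1 of the 3 forms. Of 12 other transferases and related proteins tested, 3 were higher (25.0%, against 16.4%) and 1 lower (8.33%, against 18.4%). After correction 2 were higher and 1 to 2 lower (16.7% and 8.33% in the robust form, against 12.3% and 13.1% of all genes). *Vars* and *Clic4* had log2 fold changes of 0.41 and 0.40 and *Eef1g* of -0.39. *Gstm3* gave normalized counts of 4, 5 and 5 in *Ctrl* against 18, 21 and 15 in *Tet iTKO* lines and passed the filter on the mean through the latter alone, so its log2 fold change of 1.74 describes a gene of few reads. Its call held in 4 of the 6 fits without a line and was lost with quantile normalization (1.18, adjusted p = 0.1).

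Of the 28 pathway genes named as changed, 21 kept their call in all 3 forms of the correction for GC content and length. *Vars*, *Txndc17*, *Sesn2*, *Nfe2l1*, *Mafg* and *Selenoh* lost theirs in all 3, *Txndc17* moving to between -0.13 and -0.11 and *Nfe2l1* to between 0.05 and 0.16. *Vars*, *Sesn2*, *Selenoh* and *Mafg* changed sign in at least 1 form.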

How the data were processed

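The authors made Smart-Seq2 libraries, which keep no strand and no molecular tags, aligned reads of 50 bases uniquely with STAR to mm9 (build from the submitters' processing notes), counted them per gene with HTSeq 0.7.1 (minimum mapping quality 10) in a stranded mode and divided by DESeq2 1.26.0 size factors. The annotation is not given in the sources used here. The deposited values have the unit score, since the authors rounded these normalized counts to whole numbers, so no count model was used. Of 22380 identifiers, 20775 were paired with a symbol, transcript length and GC content through GENCODE M21 on GRCm38. A floor of 3 normalized counts was taken, which covers counting error only.

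Groups, taken from the sample titles, were fitted by limma (3.58.1, under R 4.3.3) with lmFit and a trended eBayes, after adding 1 to the values and taking log2. The 10524 genes averaging 10 or more were tested, p-values were adjusted by Benjamini and Hochberg, and calls were made at an adjusted p under 0.05. For ratios an exact permutation test, two-sided, was used. Python 3.11.15 and pandas 2.3.3 served for tables. The scripts were tested on simulated data. The members and lists were chosen with earlier results of these data known. Values per line are given for members that passed with a log2 change of at least 0.5 either way, regulators, members of ratios and members with a mean under 10, and for pathway lists up to 3 genes in each direction with the largest fold change.

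A correction of each library for the GC content and log2 length of transcripts with a loess fit (span 0.3, 10457 genes) was planned, but its form was not fixed. It was run in 3 forms, each after seeing the results of the one before: least squares of degree 1, least squares of degree 2, and a robust fit of degree 2. The robust form was added because both least-squares forms moved the median log2 fold change of all genes to -0.06, and counts of an earlier analysis of these data, which it approached most, were in view. The result of each form is therefore given. Alternatives also varied the pseudocount, filter, scaling, eBayes trend, replicate block and lines.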

Additional observations from a re-analysis of the deposited data

How the results depend on the processing

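With pseudocounts of 0.5 and 4 the members gave 5 higher and 14 lower, as reported. Fewer members were lower with genes of any mean above 0 (9), with eBayes without the trend (9) and with libraries rescaled to equal totals (8, with 8 higher), and leaving out 1 line gave 9 to 13 lower and 4 to 6 higher, the 9 coming without *Ctrl* replicate 1 or *Tet iTKO* replicate 2. Quantile normalization gave 7 higher and 11 lower. Rescaling to equal totals gave 2319 higher and 1428 lower genes of all, against 1731 and 1934, and eBayes without the trend 1075 and 1217. The correction for GC content and length, whose form was chosen after seeing the data, gave 8 members higher and 10 lower by least squares of degree 1 and of degree 2, and 9 and 8 by the robust fit. Over all genes it gave 1006 higher and 2030 lower, 988 and 1956, and 1285 and 1373 in these forms, so the balance of directions depends on the form, while 35 of 38 members had 1 call in all 3. With a log2 fold change of 1 or more required, 1 member was higher and 1 lower, 4 and 1 pathway genes, and 521 and 137 of all genes.

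After the correction (degree 1, degree 2 and robust in turn) the log2 fold change turned for *Prdx1* (0.16, 0.15 and 0.16), *Prdx3* (0.0219, 0.0068 and 0.0394), *Txn1* (0.31, 0.32 and 0.34), *Vars* (-0.23, -0.24 and -0.0665) and *Sesn2* (-0.20, -0.21 and -0.0627), by both least-squares forms for *Mafg* (-0.0569 and -0.0464), and for *Selenoh* by degree 2 (0.0083) and the robust form (0.0287). The robust values were the same with the replicate block. The cause was not tested. Another 39 changes of sign concerned genes past the threshold in neither fit. Replicate numbers did not pair the lines (correlations of 0.0007, -0.0054 and -0.0031), and with the replicate number as a block 5 members were higher and 14 lower and no member call changed. Of the 19 calls, 13 held in all 6 fits without a line, and 9 held in every fit that tested the gene. *Gclm*, *Gstp1* and *Gstt1* were higher in these, and *Gpx1*, *Gpx2*, *Gsta4*, *Prdx2*, *Sod1* and *Nqo1* lower. *Gstt1*, a gene of few reads that passed the filter through the *Tet iTKO* lines alone, was not tested with the filter at a mean of 50. With 3 lines a group the exact tests could not reach 0.05.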
